A study of Homo sapiens with 6 samples.

Results

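Genes of the human HOX clusters were followed in 3 lines of gastric tumour cells. The deposited count table of 29744 symbols held 39 that consist of HOX, a letter from A to D and a number, and 38 of them are described here, genes without a single count included. The lines were HER2R, a derivative of MKN45 resistant to a T cell bispecific antibody against HER2; CEAR, a derivative resistant to such an antibody against CEACAM5; and MKN45, a gastric cancer line labelled sensitive. These antibodies link T cells to the antigen on tumour cells. Each line had 2 libraries of total RNA, depleted of ribosomal RNA. The source of HER2R is named MKN45-HER2 and that of CEAR MKN45-CEAR. Whether MKN45-HER2 is a modified line from which HER2R was raised is not stated, so such a modification and the resistance cannot be told apart in HER2R against MKN45. The labels list no treatment for any line, no clone, and no word on antibody in the medium of the resistant lines. All lines grew in the same medium with serum. Whether a line's libraries stem from separate cultures is not stated, and the p-values therefore measure the spread between these samples alone, which may be technical.

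HOX genes encode homeodomain transcription factors that give cells of the embryo their position along the body axis. They lie in 4 clusters, and genes of different clusters that descend from a common ancestor carry the same number and form a paralogue group. Within a cluster the order on the chromosome follows the order of use along the axis, with low numbers used toward the head and high numbers toward the tail. In adult tissues and in cancers many cells keep a set of active HOX genes, which Polycomb complexes repress and trithorax complexes keep active.

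Totals ran from 39657353 to 57964246 counts per library, and 14958 symbols with enough counts were tested. Levels are given in CPM, the counts divided by the library total after TMM scaling, in library 1 and library 2 of each line. A single count was worth 0.0177 to 0.0255 CPM. Epithelial markers stood at 1 CPM or more in both libraries for 12 of 12 genes in HER2R, 11 of 12 in CEAR and 12 of 12 in MKN45. Fibroblasts also transcribe HOX genes, and 2 of 10 fibroblast markers reached 1 CPM in HER2R, 2 in CEAR and 0 in MKN45. Summed over the list, they ran from 5.23 to 8.92 CPM in HER2R, 3.21 to 4.60 CPM in CEAR and 2.39 to 2.66 CPM in MKN45. Those that reached it were COL1A1 and TWIST2. COL1A1 had 7.44 and 3.55 CPM in HER2R, 1.69 and 1.10 CPM in CEAR and 1.68 and 0.591 CPM in MKN45 (edgeR adjusted p = 0.0564 in HER2R against MKN45). TWIST2 had 1.25 and 1.68 CPM in HER2R, 2.79 and 2.07 CPM in CEAR and 0.779 and 1.41 CPM in MKN45. COL1A1 was thus higher in HER2R than in either other line in every library, though not called, and TWIST2 was highest in CEAR. COL1A2, LUM and PDGFRB stayed under 0.4 CPM, and COL3A1, DCN, PDGFRA, THY1 and FBLN1 had 0 counts in all 6 libraries. Of 8 measured T cell and leukocyte markers and 5 endothelial markers, 0 reached 1 CPM in both libraries of any line. The part of the fibroblast markers in the results was not tested. In such bulk samples, fewer cells transcribing a gene and less RNA per cell cannot be told apart.

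By GENCODE 29 on GRCh38, the described HOXA genes span chr7:27100354-27200106 on the minus strand and HOXB spans chr17:48528526-48729178 on the minus strand. HOXC spans chr12:53938765-54056030 and HOXD chr2:176092891-176190907, both on the plus strand. Promoter sequence from the RefSeq table (GRCh38.p14) was matched by symbol for 20 of the 38 genes, with 27 promoters. The stretches of 250 bases before the start are shown for HOXA13 and for the farther upstream of the 2 HOXA10 promoters in the table, whose genes were lower in HER2R, and for HOXD8 and HOXD10, which had no count in any library. Capitals mark the CG dinucleotides.
HOXA13 (chr7:27200092-27200341, minus strand): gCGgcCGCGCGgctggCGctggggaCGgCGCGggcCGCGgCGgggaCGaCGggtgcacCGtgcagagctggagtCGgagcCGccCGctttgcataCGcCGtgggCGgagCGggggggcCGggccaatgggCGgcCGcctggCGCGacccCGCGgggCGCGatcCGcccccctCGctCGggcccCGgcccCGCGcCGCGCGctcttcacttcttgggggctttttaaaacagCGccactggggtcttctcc
HOXA10 (chr7:27179862-27180111, minus strand): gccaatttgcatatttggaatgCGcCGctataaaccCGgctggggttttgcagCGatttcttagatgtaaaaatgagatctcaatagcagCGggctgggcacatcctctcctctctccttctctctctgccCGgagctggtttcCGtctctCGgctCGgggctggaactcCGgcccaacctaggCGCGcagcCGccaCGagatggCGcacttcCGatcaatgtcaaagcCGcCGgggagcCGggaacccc
HOXD8 (chr2:176129455-176129704, plus strand): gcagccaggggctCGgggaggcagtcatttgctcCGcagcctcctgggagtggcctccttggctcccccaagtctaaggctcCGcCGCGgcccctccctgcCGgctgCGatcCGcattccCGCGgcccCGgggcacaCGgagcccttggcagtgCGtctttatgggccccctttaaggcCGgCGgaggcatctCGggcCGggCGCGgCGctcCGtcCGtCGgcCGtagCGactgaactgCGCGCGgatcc
HOXD10 (chr2:176116528-176116777, plus strand): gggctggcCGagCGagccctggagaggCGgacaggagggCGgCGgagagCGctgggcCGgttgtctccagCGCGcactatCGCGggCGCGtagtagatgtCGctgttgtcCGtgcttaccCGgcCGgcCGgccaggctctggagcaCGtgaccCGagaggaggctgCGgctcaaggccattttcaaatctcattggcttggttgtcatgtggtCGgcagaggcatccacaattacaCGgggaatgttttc
These hold 40 CG dinucleotides before HOXA13, 19 before HOXA10, 28 before HOXD8 and 23 before HOXD10. The other HOXA10 promoter holds 24. Over the 300 bases of each table entry, from 250 before to 50 after the start, the 27 HOX promoters held a median of 22.0 CG dinucleotides, against 14.0 over all 35116 promoters. The quartiles were 14.0 and 27.0 against 4.0 and 28.0, and the median GC content was 58.0% against 58.7%. The motif TATAAA, searched on both strands, was in 5 of the 27 HOX promoters (18.5%), both of HOXA10 among them, and in 11.5% of all. The motif TGATNNAT, the core of sites bound by HOX proteins with PBX partners, was in 3 of the 27 (11.1%) and in 7.4% of all. The matches of the 2 motifs did not overlap in the HOX promoters. Both motifs are descriptions of these windows, which cover the clusters unevenly. Several of the 27 belong to HOXA3, and HOXC4 and HOXC5 have the same window, which is counted for each. HOXB1 is the only HOXB gene among them.

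The lines shared most of their HOX repertoire. At 1 CPM or more in both libraries, 27 of the 38 genes were detected in HER2R, 25 in CEAR and 26 in MKN45. The same 25 were detected in all 3 lines, HOXA2 and HOXD4 in some, and 11 in none. By cluster, 9 of 10 HOXA genes were detected in HER2R, 8 in CEAR and 9 in MKN45. HOXB gave 8 of 10 and HOXC 8 of 9 in every line. HOXD stood apart, with 2 of 9 genes detected in HER2R, 1 in CEAR and 1 in MKN45. Among the paralogue groups, 5 of the 7 genes of groups 1 to 3 were detected in HER2R, 4 in CEAR and 5 in MKN45. Of the 15 genes of groups 4 to 8 there were 12 in HER2R, 11 in CEAR and 11 in MKN45, and of the 16 genes of groups 9 to 13 there were 10 in each line.

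**Figure D1:**
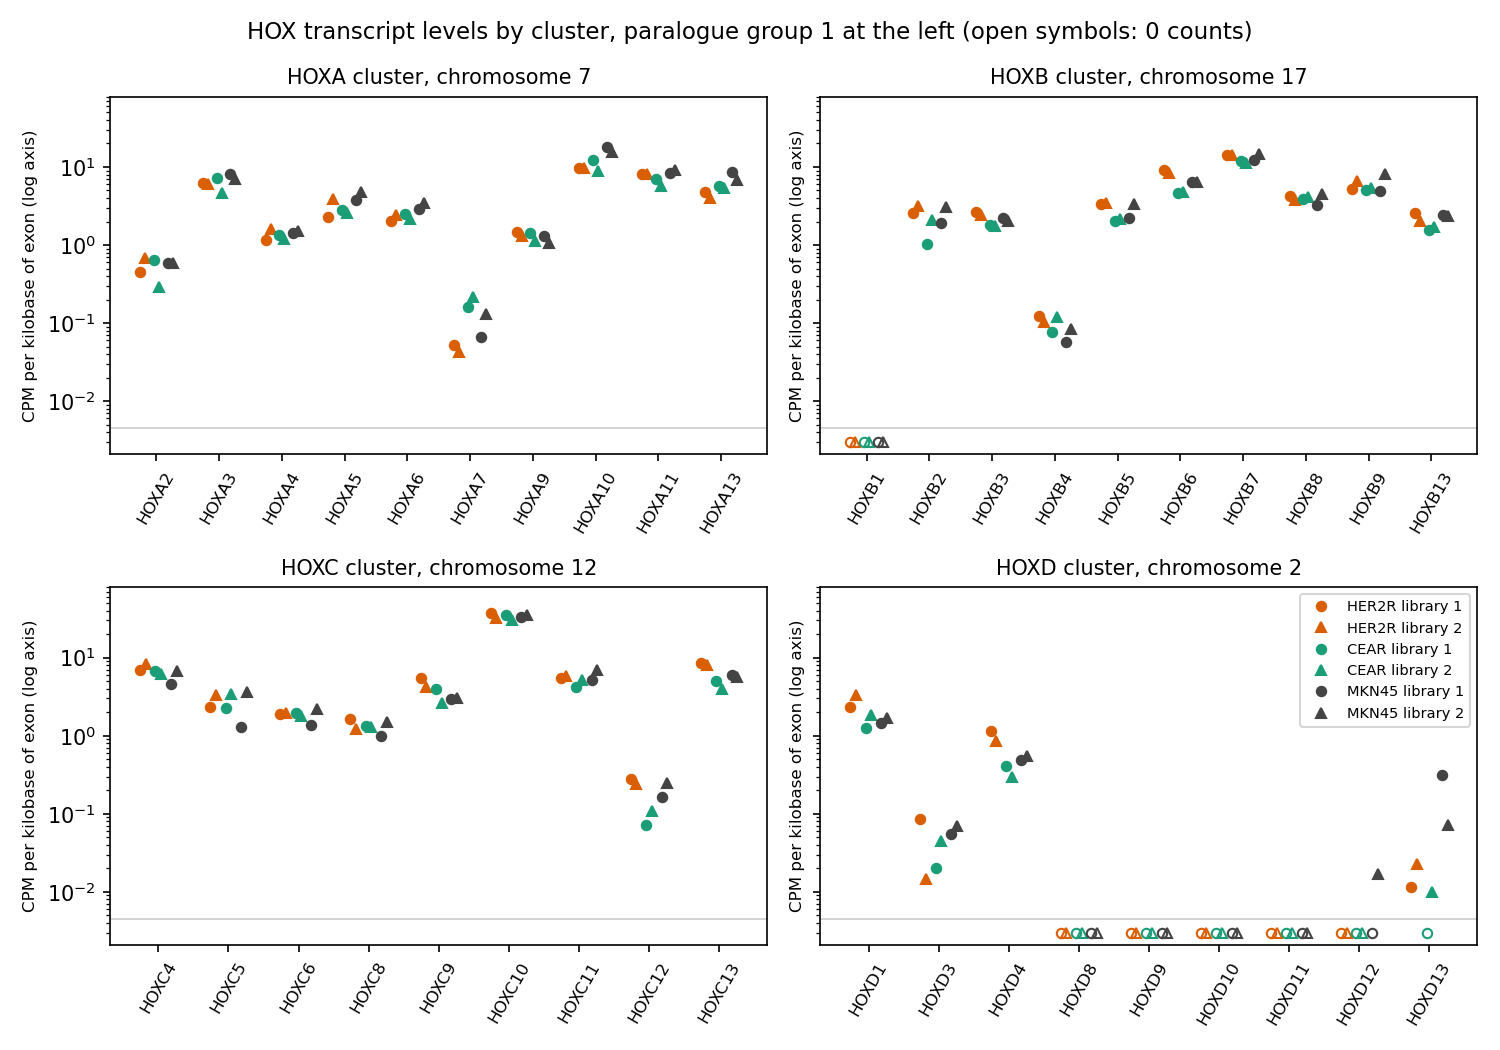
Level of each HOX gene in CPM per kilobase of exon (log axis), by cluster, with paralogue group 1 at the left. Circles are library 1 and triangles library 2 of HER2R (orange), CEAR (green) and MKN45 (grey), and open symbols below the line are libraries with 0 counts. HOXC10 is the highest gene, and HOXD8 to HOXD11 have no count in any library.

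Of the HOXA genes, HOXA7 alone was under 1 CPM in every library. HOXA2, which patterns the skeleton of the second pharyngeal arch, had 1.10 and 1.66 CPM in HER2R, 1.59 and 0.719 CPM in CEAR and 1.43 and 1.46 CPM in MKN45. HOXA3, needed for the thymus and parathyroid in mouse, had 27.1 and 25.8 CPM in HER2R, 31.5 and 20.2 CPM in CEAR and 35.1 and 30.0 CPM in MKN45. HOXA2 overlapped between all lines, and HOXA3 was lower in HER2R than in MKN45 in every library while CEAR overlapped both.

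The middle of the cluster holds HOXA4 to HOXA7. HOXA4 had 2.04 and 2.83 CPM in HER2R, 2.34 and 2.11 CPM in CEAR and 2.46 and 2.66 CPM in MKN45. HOXA5, needed for lung development in mouse, had 3.85 and 6.61 CPM in HER2R, 4.75 and 4.43 CPM in CEAR and 6.52 and 8.21 CPM in MKN45. HOXA6 had 2.60 and 3.09 CPM in HER2R, 3.18 and 2.74 CPM in CEAR and 3.74 and 4.46 CPM in MKN45. HOXA6 was the only 1 of these 3 genes whose libraries lay below those of MKN45 in both derivatives. HOXA7 had 4 to 23 counts per library, under 1 CPM, at 0.127 and 0.102 CPM in HER2R, 0.385 and 0.517 CPM in CEAR and 0.159 and 0.318 CPM in MKN45. Annotated exons of HOXA-AS3, on the other strand, cover 62.5% of the exon bases of HOXA7 and 39.3% of those of HOXA6. The libraries were stranded, but how strand was used in counting is not given in the sources used here, so reads of such overlapping genes cannot be told apart.

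Among the tail genes of HOXA, mean levels per kilobase of exon were highest for HOXA10 and lowest for HOXA9 in every line. HOXA9, a regulator of blood progenitors, had 4.51 and 3.95 CPM in HER2R, 4.34 and 3.39 CPM in CEAR and 3.90 and 3.18 CPM in MKN45. HOXA10, known for its part in the uterus and in blood cells, had 35.6 and 35.6 CPM in HER2R, 45.8 and 33.4 CPM in CEAR and 67.2 and 57.1 CPM in MKN45. Both derivatives were below MKN45 in every library for HOXA10 and overlapped each other. HOXA11, which acts in the forelimb and the urogenital tract, had 18.6 and 18.5 CPM in HER2R, 16.1 and 13.3 CPM in CEAR and 19.6 and 21.4 CPM in MKN45. HOXA13, which acts in the distal limb, the hindgut and the genital tract, had 24.0 and 20.1 CPM in HER2R, 28.7 and 27.6 CPM in CEAR and 44.4 and 34.3 CPM in MKN45. The 3 lines did not overlap for HOXA13, with HER2R lowest and MKN45 highest. HOXA10-AS covers 16.4% of the exon bases of HOXA10, HOXA11-AS 31.1% of those of HOXA11, and HOTTIP 1.69% of those of HOXA13. On the same strand AC004080.3, a protein-coding entry, shares 9.93% of the exon bases of HOXA10 and 13.1% of those of HOXA9. The deposited counts also held a symbol HOXA10-HOXA9, with 11 to 89 counts per library. The division of counts among these entries is uncertain.

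In HOXB, HOXB1, which marks a segment of the hindbrain, had 0 counts in all 6 libraries. That allows up to 3 counts per library, which is 0.0531 to 0.0765 CPM by counting error alone. HOXB2, a hindbrain gene, had 6.06 and 7.35 CPM in HER2R, 2.43 and 4.90 CPM in CEAR and 4.45 and 7.12 CPM in MKN45. HOXB3 had 19.9 and 18.1 CPM in HER2R, 13.3 and 13.3 CPM in CEAR and 16.7 and 15.3 CPM in MKN45. HOXB3 did not overlap between any lines, and HER2R was highest. HOXB4, used to expand blood stem cells, stayed under 1 CPM in every library, from 0.383 to 0.459 CPM in HER2R, 0.289 to 0.449 CPM in CEAR and 0.213 to 0.318 CPM in MKN45. HOXB5, which acts in the enteric nervous system, had 6.75 and 6.96 CPM in HER2R, 4.14 and 4.36 CPM in CEAR and 4.52 and 6.94 CPM in MKN45. HOXB6 had 23.7 and 21.9 CPM in HER2R, 12.2 and 12.3 CPM in CEAR and 16.8 and 16.8 CPM in MKN45. The spread within each line was small for HOXB6 against the distance between lines, with HER2R highest and CEAR lowest. HOXB6 shares 16.6% of its exon bases with HOXB3 on the same strand and 16.3% with HOXB-AS3 on the other.

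HOXB7, a gene often studied for its overexpression in carcinomas, had 21.5 and 21.9 CPM in HER2R, 18.4 and 17.2 CPM in CEAR and 18.6 and 22.3 CPM in MKN45. HOXB8 had 8.76 and 7.80 CPM in HER2R, 7.88 and 8.58 CPM in CEAR and 6.64 and 9.14 CPM in MKN45. HOXB9 had 13.5 and 16.9 CPM in HER2R, 12.9 and 13.7 CPM in CEAR and 12.6 and 20.9 CPM in MKN45. For HOXB8 and HOXB9 the MKN45 libraries spanned or overlapped those of both derivatives. HOXB13, which lies 98.4 kb away from HOXB9 and is a marker of prostate and distal gut epithelium, had 8.92 and 7.04 CPM in HER2R, 5.47 and 5.82 CPM in CEAR and 8.29 and 8.21 CPM in MKN45. CEAR was lowest for HOXB13, and HER2R spanned MKN45.

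HOXC carried the highest single gene. HOXC10, which specifies lumbar motor neurons, had 86.4 and 74.3 CPM in HER2R, 81.3 and 70.1 CPM in CEAR and 77.2 and 82.9 CPM in MKN45, and all lines overlapped. HOXC4 had 19.0 and 22.3 CPM in HER2R, 18.5 and 16.9 CPM in CEAR and 12.6 and 18.5 CPM in MKN45. HOXC5 had 4.15 and 6.04 CPM in HER2R, 4.14 and 6.25 CPM in CEAR and 2.30 and 6.48 CPM in MKN45. HOXC6 had 6.62 and 6.86 CPM in HER2R, 6.89 and 6.31 CPM in CEAR and 4.80 and 7.82 CPM in MKN45. For HOXC5 and HOXC6 the MKN45 libraries lay on either side of all 4 libraries of the derivatives. On the same strand, HOXC4 shares 17.8% of its exon bases with HOXC6. HOXC5 shares 33.9% of its own with AC012531.2, another protein-coding entry, and 59.9% with a processed transcript that is also named HOXC5. The division of counts among them is uncertain. Which HOXC5 entry was counted is not given, and the exon length used here is that of the protein-coding one.

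HOXC8, which helps set the identity of brachial motor neurons, had 3.06 and 2.30 CPM in HER2R, 2.51 and 2.43 CPM in CEAR and 1.86 and 2.80 CPM in MKN45. HOXC9, which sets the thoracic one, had 9.12 and 7.14 CPM in HER2R, 6.58 and 4.45 CPM in CEAR and 4.96 and 5.16 CPM in MKN45. HOXC11 had 18.1 and 18.8 CPM in HER2R, 13.5 and 16.9 CPM in CEAR and 17.1 and 23.0 CPM in MKN45. Of these 3 genes, HOXC9 alone had every HER2R library above every MKN45 library. HOXC12 stayed under 1 CPM, from 0.791 to 0.917 CPM in HER2R, 0.241 to 0.360 CPM in CEAR and 0.549 to 0.819 CPM in MKN45. HOXC13, which drives hair and nail keratin genes, had 20.7 and 19.2 CPM in HER2R, 12.1 and 9.55 CPM in CEAR and 14.4 and 13.7 CPM in MKN45. The 3 lines did not overlap for HOXC13, with the same order as for HOXB6.

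The HOXD genes were nearly silent, while HOXD-AS1, a noncoding RNA of the cluster, was not. HOXD-AS1 had 17.1 and 30.4 CPM in HER2R, 12.3 and 20.9 CPM in CEAR and 15.4 and 25.6 CPM in MKN45. HOXD8, HOXD9, HOXD10 and HOXD11, which are neighbours, had 0 counts in all 6 libraries. HOXD12 had 1 count in all, in MKN45 library 2. HOXD13, a gene of the developing digits, had 1 and 2 counts in HER2R, 0 and 1 in CEAR and 40 and 7 in MKN45. That is 0.0255 and 0.0510 CPM in HER2R, 0 and 0.0225 CPM in CEAR and 0.709 and 0.159 CPM in MKN45, and HOXD13 did not pass the filter and was not tested. The 2 MKN45 libraries differ widely there, and both lie above all 4 libraries of the derivatives. On the other side of a gap of 3.92 kb after HOXD8, HOXD3 had 2 to 12 counts per library (0.0510 to 0.306 CPM), HOXD4 was detected in HER2R and HOXD1 in all lines. HOXD4, a gene of the hindbrain and neck, had 1.71 and 1.25 CPM in HER2R, 0.602 and 0.427 CPM in CEAR and 0.709 and 0.796 CPM in MKN45. HOXD1 had 4.66 and 6.50 CPM in HER2R, 2.48 and 3.62 CPM in CEAR and 2.87 and 3.32 CPM in MKN45. HER2R was above both other lines in every library for HOXD4 and HOXD1. AC009336.2, a protein-coding entry on the same strand, covers 80.5% of the exon bases of HOXD4, and 58.1% of those of HOXD1 are covered by entries on the opposite one. These are AC009336.3, with 50.1%, and the antisense RNA HAGLR, with 8.0%. As the use of strand in counting is not given, the division of counts is uncertain for HOXD1 too.

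Between genes, levels were compared per kilobase of exon. On that scale HOXC10 ranked highest of the 38 in every line, at 34.5 ± 3.67 in HER2R, 32.5 ± 3.39 in CEAR and 34.3 ± 1.74 CPM per kilobase in MKN45 (mean ± SD, n = 2). It also ranked 1 in every line when levels were divided by the longest coding transcript. HOXB7 followed in both derivatives on this scale, although in CEAR HOXA10 ranked 2 and HOXB7 3 by the longest coding transcript. HOXB7 had 14.2 ± 0.189 CPM per kilobase in HER2R and 11.6 ± 0.552 in CEAR, against 13.4 ± 1.70 in MKN45. HOXA10 had 9.61 ± 0.00174 CPM per kilobase in HER2R, 10.7 ± 2.36 in CEAR and 16.8 ± 1.93 in MKN45, where its mean stood above that of HOXB7. HOXA10 and HOXB7 overlapped in library values in CEAR but not in HER2R or MKN45. The rank order of the 38 genes was much alike between lines, with Spearman's rho of 0.971 for HER2R and MKN45, 0.983 for CEAR and MKN45 and 0.974 for HER2R and CEAR. This is a description over genes that are not independent, and the silent genes contribute to it.

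**Figure D2:**
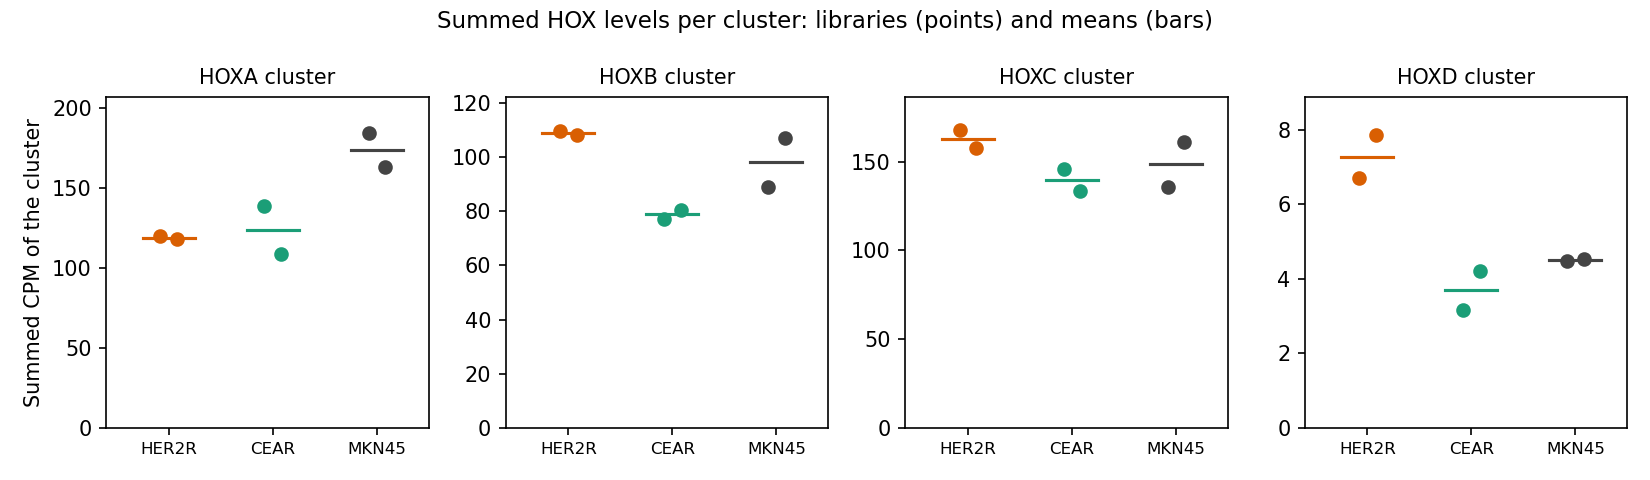
Summed CPM of each HOX cluster in HER2R, CEAR and MKN45, with a point per library and a bar at the mean. HOXA is highest in MKN45, and HOXD is the lowest cluster in every line.

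Summed over its genes, HOXA reached 119.6 and 118 CPM in HER2R, 139 and 108 CPM in CEAR and 184 and 163 CPM in MKN45. HOXB reached 109.5 and 108 CPM in HER2R, 77.1 and 80.5 CPM in CEAR and 88.9 and 107 CPM in MKN45. Both derivatives were below MKN45 for HOXA, and for HOXB the order was HER2R, MKN45, CEAR with no overlap. HOXC reached 168 and 158 CPM in HER2R, 146 and 133 CPM in CEAR and 136 and 161 CPM in MKN45. HOXD reached 6.70 and 7.86 CPM in HER2R, 3.16 and 4.22 CPM in CEAR and 4.48 and 4.55 CPM in MKN45. These sums were not tested.

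In HER2R against MKN45, which asks what differs in the line resistant to the HER2 antibody, HOXA10 and HOXA13 fell and no HOX gene rose. Of 31 tested HOX genes, 0 rose and 2 fell, which is 6.45%, against 9.74% of all tested genes called in this comparison at an edgeR adjusted p under 0.05, with 4.89% called higher and 4.85% lower. HOXA13 had a log2 fold change of -0.83 (SE 0.18, edgeR adjusted p = 0.0404) and HOXA10 one of -0.80 (SE 0.19, edgeR adjusted p = 0.0464). At an unadjusted p under 0.05 there were 7. The share of all tested genes at that p was not counted, so this number has nothing to stand against. DESeq2 and voom also called 0 higher. The fold changes of HOXA leaned down, with 9 of 10 genes below 0 and a median of -0.40, where the exception was HOXA9 at 0.25. In HOXB 7 of 9 tested genes were above 0, with a median of 0.22, and in HOXC 8 of 9, with a median of 0.24. The median over all tested HOX genes was 0.08, and over all tested genes -0.02. By libraries that did not overlap, 9 HOX genes were higher in HER2R, or 29% against 27.8% of all tested genes, and 6 were lower, all of them in HOXA, or 19.4% against 29.3%. The largest values not called were HOXD4 at 0.98 (SE 0.38, edgeR adjusted p = 0.149), HOXA7 at -0.99 (SE 0.75, edgeR adjusted p = 0.435) and HOXD1 at 0.85 (SE 0.31, edgeR adjusted p = 0.129).

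Neither call held without each library in turn. The call of HOXA13 ended whichever of the 6 was left out. Its edgeR adjusted p was 0.142 and 0.201 without libraries 1 and 2 of HER2R, 0.0664 and 0.0612 without those of CEAR, and 0.136 and 0.0605 without those of MKN45. That of HOXA10 ended without HER2R library 1 (edgeR adjusted p = 0.205), HER2R library 2 (0.198), MKN45 library 1 (0.151) or MKN45 library 2 (0.0920). With the library number as a block, 4 HOX genes were called higher in HER2R, HOXB6, HOXC9, HOXC13 and HOXD1, and 2 lower, HOXA10 and HOXA13, where 33.7% of all tested genes were called, 16.2% higher and 17.5% lower. In that fit the edgeR adjusted p was 0.00200 for HOXA13 and 0.00264 for HOXA10.

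**Figure D3:**
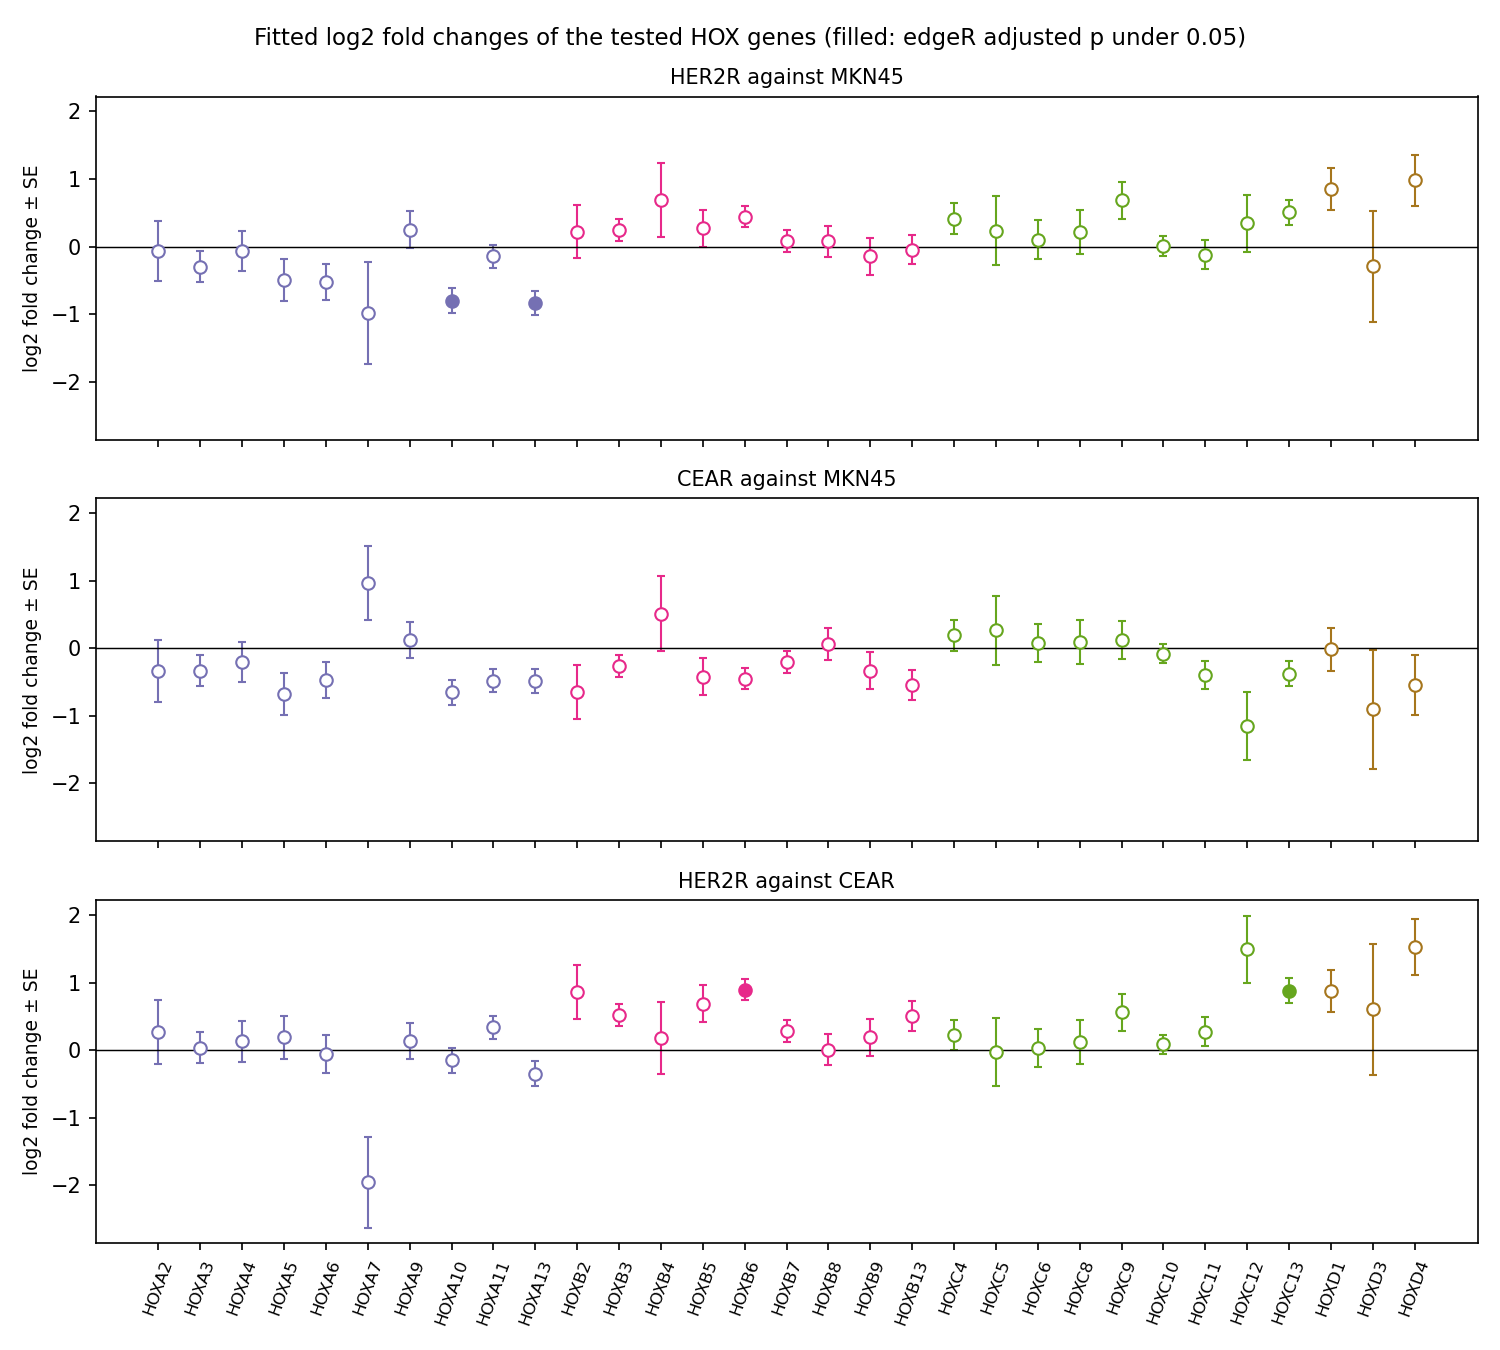
Fitted log2 fold changes with their SE for the 31 tested HOX genes, coloured by cluster, in HER2R (top) and CEAR (middle) against MKN45 and in HER2R against CEAR (bottom). Filled points are called at an edgeR adjusted p under 0.05, which are HOXA10 and HOXA13 in the top panel, none in the middle one, and HOXB6 and HOXC13 in the bottom one.

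In CEAR against MKN45, which asks the same of the line resistant to the CEACAM5 antibody, 0 of the 31 HOX genes described and tested were called by edgeR, against 6.19% of all tested genes, with 2.57% called higher and 3.62% lower. At an unadjusted p under 0.05 there were 5, again without a share of all tested genes to set beside them. DESeq2 called 1 lower (HOXA10, DESeq2 adjusted p = 0.0371) and voom called 0. HOXA13 stood at -0.48 (SE 0.18, edgeR adjusted p = 0.176) and HOXA10 at -0.65 (SE 0.19, edgeR adjusted p = 0.0948), and neither was called. In HOXA 8 of 10 fold changes were below 0, with a median of -0.40, and the exceptions were HOXA7 and HOXA9. Both derivatives were set against the same MKN45 libraries, so these values are not independent of those for HER2R. In HOXB 7 of 9 were below 0, with a median of -0.33, and in HOXC 4 of 9, with a median of 0.07. Over all tested HOX genes the median was -0.33, and over all tested genes it was 0.00 to 2 decimals. By libraries that did not overlap, 1 HOX gene was higher in CEAR, HOXA7, or 3.23% against 25% of all tested genes, and 16 were lower, or 51.6% against 25.6%. HOXC12 had the largest value not called, at -1.15 (SE 0.50, edgeR adjusted p = 0.237).

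Without MKN45 library 2 the low-count HOXD13 entered the fit and was called lower in both derivatives. Its log2 fold change there was -5.63 in CEAR and -4.12 in HER2R. That fit sets them against MKN45 library 1 alone, which had 40 counts against 7 in library 2. HOXD13 was not called in any other fit that it entered. With no filter its edgeR adjusted p was 0.0815 in CEAR and 0.0977 in HER2R against MKN45. With the library number as a block, 4 HOX genes were called lower in CEAR, HOXA10, HOXA11, HOXA13 and HOXB6, and 0 higher, where 25.8% of all tested genes were called, 12% higher and 13.8% lower.

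**Figure D4:**
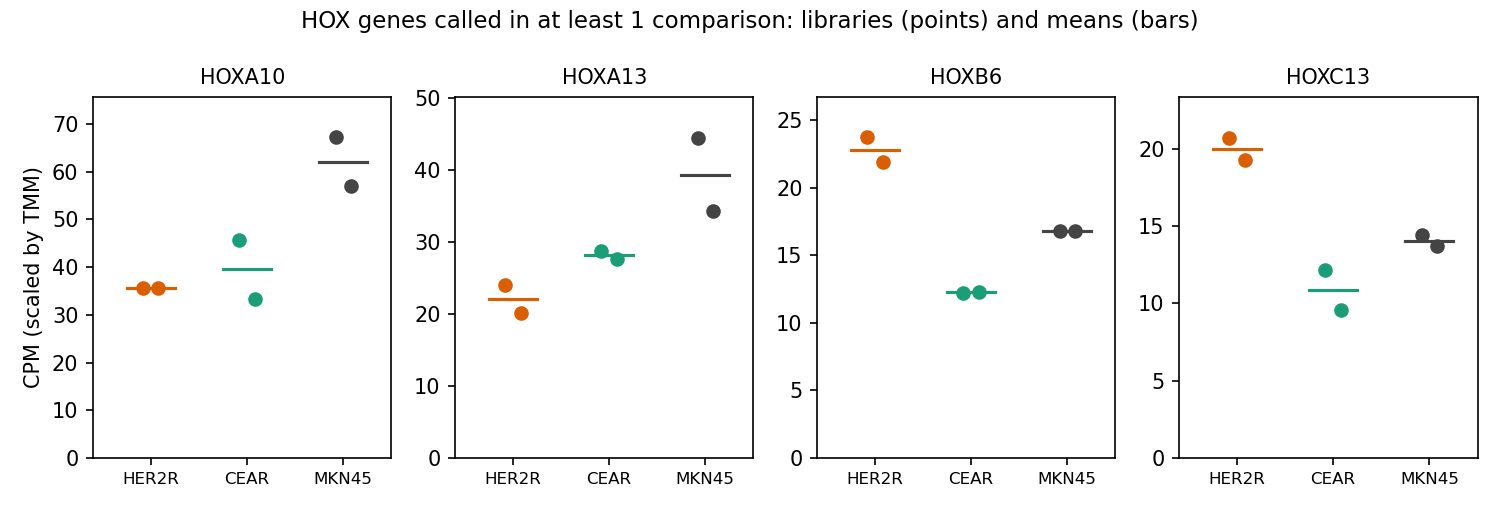
CPM in HER2R, CEAR and MKN45 of the 4 described HOX genes called in any comparison, with a point per library and a bar at the mean. HOXA10 and HOXA13 are highest in MKN45, and HOXB6 and HOXC13 are highest in HER2R and lowest in CEAR.

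In HER2R against CEAR, the comparison of the resistant lines with each other, HOXB6 and HOXC13 were higher in HER2R and no HOX gene was lower. HOXB6 had a log2 fold change of 0.90 (SE 0.16, edgeR adjusted p = 0.0200) and HOXC13 one of 0.88 (SE 0.19, edgeR adjusted p = 0.0312). These 2 of 31 are 6.45%, against 14.1% of all tested genes, with 7.32% called higher and 6.75% lower. At an unadjusted p under 0.05 there were 8, again without a share of all tested genes to set beside them. DESeq2 and voom also called 0 lower. Against MKN45, which lay between, the log2 fold change of HOXB6 was 0.44 in HER2R (SE 0.15) and -0.45 in CEAR (SE 0.16), with edgeR adjusted p = 0.119 and 0.147. That of HOXC13 was 0.51 in HER2R (SE 0.19) and -0.37 in CEAR (SE 0.19), with edgeR adjusted p = 0.135 and 0.302. In HOXB 9 of 9 fold changes were above 0, with a median of 0.50, although HOXB8 was -0.06 when libraries were scaled by their size alone. In HOXC 8 of 9 were above 0, with a median of 0.22, with HOXC6 at -0.04 under that scaling, and in HOXD 3 of 3, with a median of 0.87. In HOXA 6 of 10 were above 0, with a median of 0.08, with HOXA3 at -0.04 under that scaling. The median was 0.22 over all tested HOX genes and 0 over all tested genes. By libraries that did not overlap, 14 HOX genes were higher in HER2R, or 45.2% against 31% of all tested genes, and 2 were lower, HOXA7 and HOXA13, or 6.45% against 30.3%.

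By position, the 6 tested genes of groups 1 to 3 had a median of 0.56 in HER2R against CEAR, the 14 of groups 4 to 8 one of 0.15 and the 11 of groups 9 to 13 one of 0.27. Against MKN45 these medians were 0.08, 0.16 and -0.05 in HER2R, and -0.33, -0.07 and -0.40 in CEAR. In HER2R against CEAR, single genes went further. The largest values not called were HOXA7 at -1.96 (SE 0.67, edgeR adjusted p = 0.0995), HOXD4 at 1.52 (SE 0.41, edgeR adjusted p = 0.0566) and HOXC12 at 1.49 (SE 0.50, edgeR adjusted p = 0.0959). With the library number as a block, 8 HOX genes were called higher in HER2R, namely HOXB2, HOXB3, HOXB5, HOXB6, HOXC12, HOXC13, HOXD1 and HOXD4, and 1 lower, HOXA7, where 38.2% of all tested genes were called, 19.7% higher and 18.6% lower. The call of HOXB6 ended without HER2R library 1 (edgeR adjusted p = 0.118), HER2R library 2 (0.102), CEAR library 1 (0.0928) or CEAR library 2 (0.0971). That of HOXC13 ended without the same libraries, at 0.152, 0.132, 0.0741 and 0.152 in that order. HOXC13-AS covers 7.10% of the exon bases of HOXC13.

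Genes that act with the HOX genes, or that lie in or beside their clusters, were followed in 6 lists. None of these lists is taken as evidence about the HOX genes. Their counts stand beside the shares of all tested genes called, 9.74% in HER2R and 6.19% in CEAR against MKN45 and 14.1% in HER2R against CEAR, and 33.7%, 25.8% and 38.2% with the block. The share of all tested genes at an unadjusted p under 0.05 was not counted, so list counts at that p have none beside them. The cofactors of the TALE class, which bind DNA together with HOX proteins, had 6 tested members and 0 calls in each comparison by edgeR. At an unadjusted p under 0.05 PBX3, at -0.73 (edgeR adjusted p = 0.0948), and MEIS2, at -0.54 (edgeR adjusted p = 0.116), were below MKN45 in HER2R, and with the block 2 cofactors were called lower there. DESeq2 called PBX3 lower there, and at that p there were 0 in CEAR against MKN45 and in HER2R against CEAR, where DESeq2 and voom called 0. Of 31 tested Polycomb genes, which encode repressors of HOX clusters, 1 rose and 1 fell in HER2R against MKN45. BMI1, of the complex that modifies histone H2A, rose by 0.86 on the log2 scale (SE 0.11, edgeR adjusted p = 0.0103), and EZH2, the methyltransferase of the other main complex, fell by 0.64 (SE 0.15, edgeR adjusted p = 0.0444). In CEAR against MKN45 BMI1 was the 1 call, at 0.63 (SE 0.11, edgeR adjusted p = 0.0298), and in HER2R against CEAR there were 0 by edgeR and voom, 1 by DESeq2 (PHC2) and 5 at an unadjusted p under 0.05. BMI1 had 123 and 129 CPM in HER2R, 108 and 106 CPM in CEAR and 69.6 and 69.0 CPM in MKN45. The call of BMI1 ended without any library of the compared lines, and in CEAR also without either HER2R library, with edgeR adjusted p up to 0.0852 in HER2R and 0.140 in CEAR, and that of EZH2 ended without any of the 6 libraries, at up to 0.210. With the block the Polycomb calls were 4 higher and 5 lower in HER2R against MKN45, 3 and 3 in CEAR against MKN45, and 3 and 4 in HER2R against CEAR. Of 31 genes, these totals lie below the shares of all tested genes called with the block.

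Of 18 trithorax genes and other activators, DPY30, a subunit of the histone H3 methyltransferase complexes, rose in HER2R against MKN45 by 0.94 on the log2 scale (SE 0.17, edgeR adjusted p = 0.0250). MLLT3, of the elongation machinery, fell by 1.35 (SE 0.16, edgeR adjusted p = 0.00806). In CEAR against MKN45 there were 0 calls by edgeR and voom, 1 by DESeq2 (MLLT3) and 4 at an unadjusted p under 0.05. In HER2R against CEAR DPY30 was higher, at 0.83, and MLLT3 (-1.96), ASH2L (-0.63) and CTCF (-0.53) were lower, with edgeR adjusted p = 0.0297, 0.00303, 0.0469 and 0.0483 in that order. MLLT3 had 6.83 and 6.45 CPM in HER2R, 26.3 and 25.3 CPM in CEAR and 16.5 and 17.3 CPM in MKN45. In HER2R against CEAR the call of MLLT3 held without each library in turn, and against MKN45 it ended without either HER2R library (edgeR adjusted p up to 0.0764). The calls of ASH2L and CTCF ended without any library, at up to 0.200 and 0.226, and those of DPY30 without any library of the compared lines, at up to 0.153. With the block the calls were 5 higher and 2 lower in HER2R against MKN45, 4 and 0 in CEAR against MKN45, and 2 and 3 in HER2R against CEAR.

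Among upstream regulators, 3 enzymes of retinoic acid, which induces HOX genes in embryos and cultured cells, were called. ALDH1A2, which makes retinoic acid, had 115 and 155 CPM in HER2R, 0 counts in both CEAR libraries and 4.34 and 4.30 CPM in MKN45. It rose in HER2R against MKN45 by 4.96 on the log2 scale (SE 0.22, edgeR adjusted p = 0.00173), and in CEAR it was at least 123.9-fold lower than in MKN45 and at least 3860.0-fold lower than in HER2R, set against a floor of 3 counts over the CEAR libraries (edgeR adjusted p = 0.00306 and 0.000801). ALDH1A3, of the same family, had 33.4 and 36.6 CPM in HER2R, 30.5 and 35.8 CPM in CEAR and 3.28 and 4.98 CPM in MKN45. On the log2 scale it rose by 3.09 in HER2R and by 3.02 in CEAR (SE 0.24 in both), with edgeR adjusted p = 0.00236 and 0.00306. CYP26B1, which degrades retinoic acid, had 14.0 and 11.5 CPM in HER2R, 13.2 and 9.15 CPM in CEAR and 2.36 and 2.21 CPM in MKN45. On that scale it rose by 2.47 (SE 0.28) in HER2R and by 2.29 (SE 0.27) in CEAR, with edgeR adjusted p = 0.00607 and 0.00988. The ALDH1A2 and ALDH1A3 calls held without each library in turn, and that of CYP26B1 ended in HER2R without HER2R library 1 (edgeR adjusted p = 0.0508).

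PDX1, a homeobox gene of pancreas and distal stomach, had 9.60 and 7.88 CPM in HER2R, 14.5 and 15.6 CPM in CEAR and 21.0 and 23.9 CPM in MKN45. It fell in HER2R against MKN45 by 1.36 on the log2 scale (SE 0.19, edgeR adjusted p = 0.0121) and was lower in HER2R than in CEAR, at -0.78 (SE 0.19, edgeR adjusted p = 0.0425). Its call against MKN45 ended without HER2R library 1, HER2R library 2 or MKN45 library 2 (edgeR adjusted p up to 0.0947), and the other without any library (up to 0.206). CDX2, an intestinal homeobox gene that activates HOX genes in embryos, had 5.15 and 8.03 CPM in HER2R, 4.19 and 10.7 CPM in CEAR and 9.73 and 19.6 CPM in MKN45, with edgeR adjusted p = 0.209 in HER2R and 0.326 in CEAR against MKN45. In all, of 9 tested members 3 rose and 1 fell in HER2R against MKN45, 2 rose and 1 fell in CEAR against MKN45, and 1 was higher and 1 lower in HER2R against CEAR. With the block these were 3 and 2, 2 and 4, and 2 and 1.

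The noncoding RNAs of the clusters had 13 tested members and 0 calls in each comparison by edgeR and voom. At an unadjusted p under 0.05 there were 3 in HER2R and 2 in CEAR against MKN45 and 0 in HER2R against CEAR, and DESeq2 called HOXC-AS3 higher in HER2R and HOXA-AS2 lower in CEAR. With the block 1 rose and 3 fell in HER2R against MKN45, 1 rose and 1 fell in CEAR against MKN45, and 1 was higher in HER2R against CEAR. HOTAIR, of the HOXC cluster, had 2.17 and 2.22 CPM in HER2R, 3.88 and 2.45 CPM in CEAR and 4.23 and 4.14 CPM in MKN45, with edgeR adjusted p = 0.108 in HER2R and 0.474 in CEAR against MKN45. HOXC-AS3 had 5.17 and 5.13 CPM in HER2R, 4.63 and 4.22 CPM in CEAR and 2.48 and 2.77 CPM in MKN45, with edgeR adjusted p = 0.0533 in HER2R and 0.122 in CEAR. HOXA-AS2 had 5.27 and 3.55 CPM in HER2R, 2.60 and 3.08 CPM in CEAR and 8.84 and 5.96 CPM in MKN45, with edgeR adjusted p = 0.178 in HER2R and 0.0598 in CEAR. Of these 3, HOXC-AS3 was above MKN45 in every library of the derivatives, and HOTAIR and HOXA-AS2 were below it. By such libraries without overlap, 27.8% of all tested genes were higher and 29.3% lower in HER2R than in MKN45, and 25% and 25.6% in CEAR. The 3 were named after their values were seen, and others, such as HOXC13-AS and HOXD-AS1, overlapped MKN45 in both derivatives.

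Of 16 tested genes that flank the clusters, 4 fell in HER2R against MKN45 and 1 in CEAR, and 0 rose in either by edgeR, voom or DESeq2, where 4.85% of all tested genes were called lower in HER2R and 3.62% in CEAR. SKAP2, a neighbour of HOXA on chromosome 7 and an adaptor of immune cell signalling, fell by 0.86 on the log2 scale in HER2R and by 0.93 in CEAR (SE 0.15 in both), with edgeR adjusted p = 0.0232 and 0.0223. It had 67.6 and 66.7 CPM in HER2R, 71.2 and 57.2 CPM in CEAR and 114 and 130.2 CPM in MKN45. EVX1, on the other side of HOXA, had under 1 CPM in every library. CBX5, which encodes a heterochromatin protein and lies beyond HOXC, fell in HER2R by 1.25 against MKN45 (SE 0.15, edgeR adjusted p = 0.00754) and was lower than in CEAR, at -1.30 (SE 0.15, edgeR adjusted p = 0.00742), the 1 edgeR call of that comparison, where DESeq2 also called NFE2 higher. COPZ1 (-0.61) and ATP5G2 (-0.52), also around HOXC, fell in HER2R against MKN45 with edgeR adjusted p = 0.0292 and 0.0422. The calls of SKAP2 in CEAR, COPZ1 and ATP5G2 ended without any library, with edgeR adjusted p up to 0.115, 0.170 and 0.209. That of SKAP2 in HER2R ended without any library of the compared lines, at up to 0.141, and those of CBX5 without either HER2R library, at up to 0.0727. With the block 0 rose and 7 fell in HER2R against MKN45, 0 and 5 in CEAR against MKN45 (17.5% and 13.8% of all tested genes fell), and 2 were higher and 3 lower in HER2R against CEAR.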

How the data were processed

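RNA of 6 libraries, 2 per line, was isolated with RNeasy columns and made into stranded total RNA libraries with Ribo-Zero Plus depletion, per the labels' protocols. The authors deposited a table of raw counts, with a row per gene symbol. Per the submitters' processing notes GRCh38 and limma are listed without role or version. The aligner, counter and gene models are not given in the sources used. Counts of the 2 libraries of a line differed beyond sampling noise, at a chi-square over its degrees of freedom of 60.7 in HER2R, 90.0 in CEAR and 128 in MKN45. Over the HOX genes the chi-square per gene was 6.74 in HER2R, 13.8 in CEAR and 20.6 in MKN45.

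Differences were tested in R 4.3.3 with edgeR 4.0.16, using filterByExpr by line, TMM factors, and 1 quasi-likelihood model over all 6 libraries with a term per line (3 residual and 3.51 prior degrees of freedom). "Adjusted p" is Benjamini-Hochberg over 14958 tested genes, and genes under 0.05 were called. The SE was derived from the fold change and F. Of the 38 HOX genes described 31 were tested and 7 were not. The remaining HOX gene and 2 genes of the lists are not reported here, and counts, sums and medians leave them out, while the fit over all genes holds them. The method was tested on simulated data, drawn without any effect of the library number, so that test does not cover such an effect. Intervals and floors cover counting error only. The labels number the libraries 1 and 2. The difference of number 2 minus number 1, on log2(CPM + 0.5), correlated over all tested genes at 0.447 between HER2R and MKN45, 0.629 between CEAR and MKN45 and 0.466 between HER2R and CEAR. Over the 31 tested HOX genes alone the correlations were 0.430, 0.578 and 0.154 in that order. The number was therefore used as a block beside the results it changes, although the labels do not say what it marks.

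Those HOX genes called or at 1 CPM in both libraries of a line are given library by library. Of the lists, every called member may be named, up to 6 per direction, in order of adjusted p, and members named without a call were chosen after their values were seen. The members, lists and tests were chosen with earlier results of these data known. Positions, exon lengths and overlaps are from GENCODE 29 on GRCh38. Alternatives were DESeq2 1.42.0, voom of limma 3.58.1, the block, scaling by RLE factors or by library size alone, a filter at 1 CPM or none, a fit of the compared lines alone, and omission of each library in turn, whose lone partner is taken to vary as the other lines do. The legacy quasi-likelihood method was added as an alternative chosen after seeing the data.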

Additional observations from a re-analysis of the deposited data

How the results depend on the processing

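No HOX gene called in the report or under an alternative changed its direction. In HER2R against MKN45, 0 HOX genes were called higher and 2 lower, and 4 were called higher with the replicate block. Lower calls were 0 with no filter (edgeR adjusted p = 0.0650 for HOXA10 and 0.0556 for HOXA13) and 1 with the compared lines alone (0.0628 for HOXA13), and 0 to 1 when a library was left out. In CEAR against MKN45, 0 were called lower, 4 with the replicate block, 1 with DESeq2 and 0 to 1 when a library was left out. In HER2R against CEAR, 2 were called higher, 8 with the replicate block, 4 with DESeq2 and 0 to 2 when a library was left out, and 0 were called lower but 1 with the replicate block. Over all tested genes, HER2R against MKN45 had 1457 calls, 5040 with the replicate block, 2813 with DESeq2 and 189 to 1136 when a library was left out. CEAR against MKN45 had 926, 3861 with the block, 2066 with DESeq2, 405 with the compared lines alone and 253 to 428 when a library was left out. HER2R against CEAR had 2105, 5717 with the block, 3391 with DESeq2 and 103 to 1856 when a library was left out. The cause was not tested. RLE factors, library size alone, a 1 CPM filter, voom and the legacy method left the HOX counts as given. HOX genes detected at 0.1 CPM were 30 in HER2R, 30 in CEAR and 32 in MKN45. Precision was limited by 2 libraries per line, and HOXD12 and HOXD13 were below the filter on low counts.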
